A study of Mus musculus with 5 samples.

Results

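The colony-stimulating factors and their receptors were followed across the immune cells of the injured mouse lung. The group held 8 genes of the 28693 measured features, chosen by symbol: the 3 ligands *Csf1*, *Il34* and *Csf2*, and the 5 receptor subunits *Csf1r*, *Csf2ra*, *Csf2rb*, *Csf2rb2* and *Csf3r*. All 8 were found and all 8 are described here. CSF1 and IL-34 both bind the receptor tyrosine kinase encoded by *Csf1r*, which monocytes and tissue macrophages need for survival. CSF2, also called GM-CSF, binds a pair of chains, the specific chain of *Csf2ra* and the common β chain of *Csf2rb*, and the pair signals through JAK2 and STAT5. In the lung this signal is known for the maturation of alveolar macrophages (AMs), which clear surfactant. Mice carry a near copy of the common β chain, *Csf2rb2*, whose product serves the IL-3 receptor, and *Csf3r* encodes the receptor for G-CSF, the growth factor of neutrophils.

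Single-cell RNA-seq (10x 3′) was performed on lung cells of *Ms4a3-CreER;R26-tdT* mice, in which tamoxifen switches on a red reporter in cells of the granulocyte and monocyte progenitor lineage, where *Ms4a3* drives the Cre. There were 5 libraries: a sham library from mice given PBS, and libraries taken at day 3, 7, 14 and 28 after intratracheal bleomycin. Adult mice of both sexes on a mixed C57BL6/129 background were used per the study's methods, whether a library pooled animals was not stated, and the isolation aimed at immune cells with few structural cells. Each time point was 1 library, so no time point could be tested against another, and intervals on single libraries cover counting error only.

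The libraries held 89769386 to 167506186 UMIs, and 40950 of 52800 barcodes were kept as cells (7152 to 9237 per library). Cells were placed in classes by marker gates that contained none of the 8 genes, and each class name below stands for cells that passed that gate. The gates took 30640 cells (74.8%), while 9435 cells passed no gate. Another 875 passed more than 1 gate with scores closer than the margin of 0.2, and are called cells of more than 1 class. With a wider margin a cell went to the class of its highest score. The sham library was gated at 91.3% and the others at 65.6 to 81.1%. The labels call the cells immune cells, and small classes of fibroblasts (216 cells), endothelial cells (293) and airway epithelial cells (369) were present. The day 7 library had no barcode under 4624 UMIs, whereas the others started at 500 to 502 UMIs, so its classes lack the shallow cells seen elsewhere. Any pair of libraries shared 22 to 41 cell barcodes (0.245 to 0.420% of the smaller library). Levels are in CPM: for each class and library the UMIs of a gene were added up and scaled to a total of 1000000 UMIs.

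The 3 ligands differed in abundance and in the cells that carried them. *Csf1* had 10703 UMIs in all cells, *Csf2* 694 and *Il34* 180. Receptor transcripts were far more frequent, from 31522 UMIs of *Csf3r* to 193408 of *Csf2rb*.

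**Figure D1:**
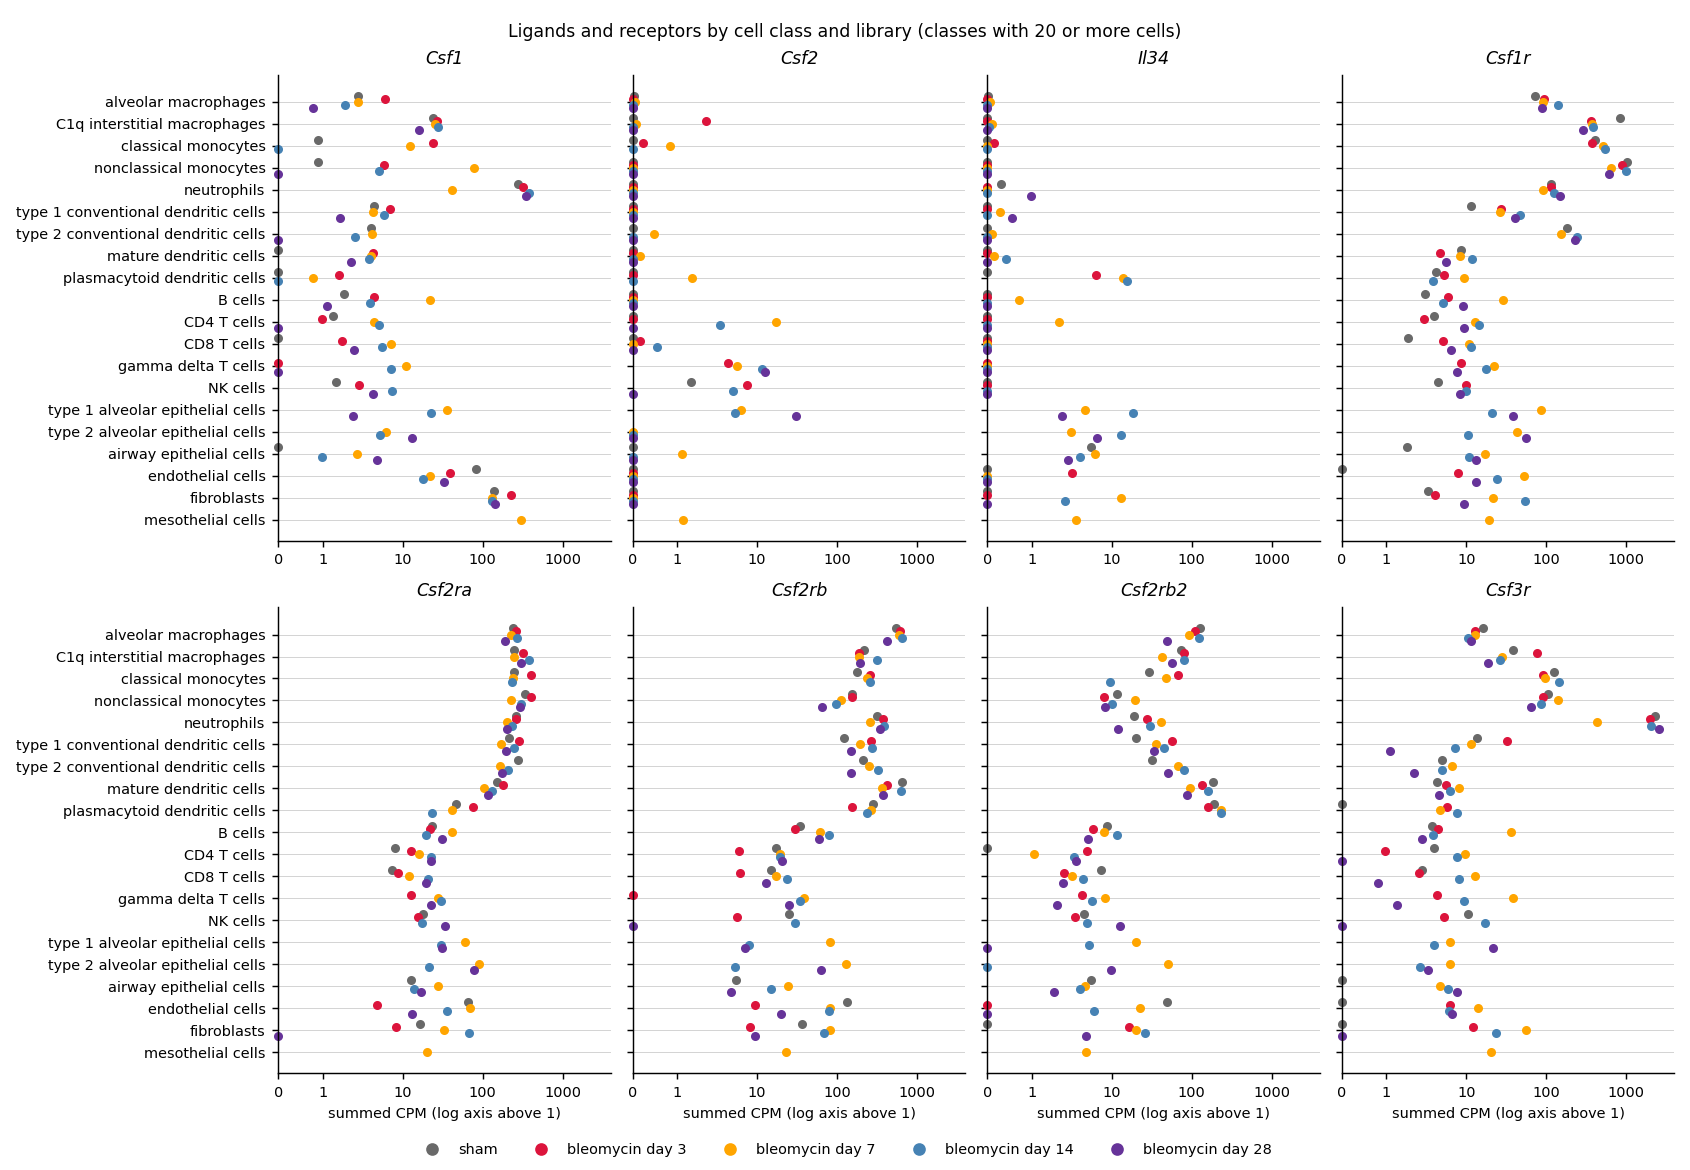
Levels of the 8 genes by cell class, in CPM on a log axis above 1, with 1 point per library for classes of at least 20 cells. *Csf1* was highest in neutrophils, fibroblasts and mesothelial cells, *Csf3r* stood above all other classes in neutrophils, and *Il34* stayed under 20 CPM in every class.

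*Csf1* (chr3:107741048-107760469, minus strand, GRCm38), the main growth factor of macrophages, was held mostly by neutrophils, C1q interstitial macrophages (C1q IMs) and cells of no class. Over all libraries neutrophils were 7.69% of the cells and held 27.0% of the *Csf1* UMIs (2886 of 10703). C1q IMs were 12.7% of the cells and held 23.4%. AMs, the largest class with 21.3% of the cells, held 3.72%, and cells of no class held 27.3%. These shares also depend on depth, which was not taken out. Median depths by library were 2157.5 to 7093 UMIs in neutrophils, 9949 to 25500 in C1q IMs and 4446 to 19214 in cells of no class. The order turned between libraries. From sham to day 28 neutrophils held 61.6, 32.8, 1.39, 29.3 and 22.6% of the *Csf1* UMIs, C1q IMs 1.08, 12.4, 30.2, 32.9 and 32.4%, and cells of no class 10.3, 25.6, 38.6, 22.0 and 37.7%.

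In neutrophils *Csf1* stood at 275, 316, 40.8, 378 and 346 CPM from sham to day 28. The day 7 library was thus low and the other 4 lay close together. The share of neutrophils with a *Csf1* UMI, after each cell was thinned to 2000 UMIs and shallower cells were left out, was 30.0%, 32.8%, 4.30%, 36.7% and 33.3% in the same order. Thinning kept 981 of 1096, 683 of 720, 93 of 93, 676 of 781 and 291 of 460 neutrophils, and without it the shares were 35.5%, 43.9%, 20.4%, 44.3% and 35.9%. In B cells, which should lack *Csf1*, the thinned share was 0 to 1.60%, with median depths of 3177 to 6189.5 UMIs against 2157.5 to 7093 in neutrophils.

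In C1q IMs the level was 24.3, 26.8, 25.3 and 28.0 CPM from sham to day 14, with overlapping 95% Poisson intervals between sham and each of the others. At day 28 it was 16.3 CPM (14.9 to 17.7), below the intervals of day 3, 7 and 14. AMs lay lower in every library, at 2.78, 6.06, 2.80, 1.91 and 0.794 CPM. Classical monocytes had 0.892 CPM in sham, 24.2 at day 3 and 12.5 at day 7, and no *Csf1* UMI in the 23 cells of day 14. Nonclassical monocytes held 0.904 CPM in sham, 5.82 at day 3 and 79.1 in the 25 cells of day 7; in those 25 cells the summed level of the 9 neutrophil markers was 6770 CPM, against 89.8 to 420 CPM in the other libraries, and its part in the value was not tested.

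Among structural cells, fibroblasts carried 138, 225, 130, 130 and 142 CPM of *Csf1* from sham to day 28. Endothelial cells carried 82.1, 39.6, 22.3, 18.1 and 33.0 CPM, so the values of the classes did not overlap. The endothelial values rest on 5, 25, 8, 3 and 5 UMIs, and counting intervals were not compared. The 52 mesothelial cells of day 7 reached 300.1 CPM. Type 1 alveolar epithelial cells (AT1 cells) had 35.6 CPM at day 7, 22.4 at day 14 and 2.38 at day 28.

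A very small class had the highest level over all libraries together, though not at day 7 (67.3 CPM) or day 28 (235 CPM). The gate for basophils, cells marked by *Mcpt8* and *Cd200r3*, took 26 cells, 0.0635% of all, and these held 347 *Csf1* UMIs (3.24%). The counts were 9 UMIs in the 1 sham cell, 78 in 4 cells at day 3, 2 in 2 cells at day 7, 256 in 16 cells at day 14 and 2 in 3 cells at day 28. In all, 22 of the 26 basophils had a *Csf1* UMI, the summed level was 2184 CPM, and the highest count in a cell was 89. The leading genes of the class also held *Cpa3*, *Mcpt2* and *Cma1*, and mast cells were not gated apart from it. With under 20 basophils in each library, the class was not tested.

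**Figure D2:**
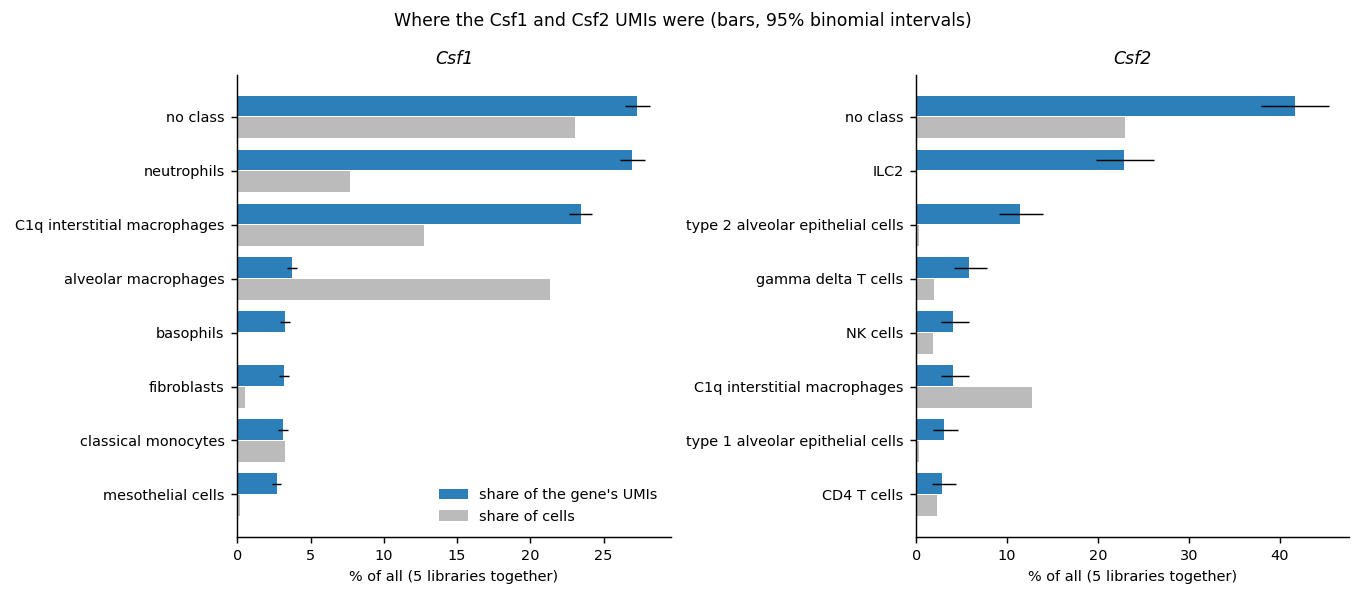
Share of all *Csf1* UMIs (left) and *Csf2* UMIs (right) held by each class, with 95% binomial intervals, beside the share of all cells in that class, in percent. Neutrophils and C1q IMs held more of the *Csf1* UMIs than of the cells, and ILC2s held 22.9% of the *Csf2* UMIs with 0.107% of the cells. Shares of UMIs were not adjusted for the depth of a class.

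*Il34* (chr8:110741829-110805924, minus strand), the other ligand of *Csf1r*, was scarce. Of its 180 UMIs, plasmacytoid dendritic cells (pDCs) held 34 (18.9%), airway epithelial cells 26 (14.4%) and AT1 cells 18 (10.0%). Type 2 alveolar epithelial cells (AT2 cells) held 13 (7.22%) and fibroblasts 12. Cells of no class held 28 (15.6%) and cells of more than 1 class 21 (11.7%). Of the 12 UMIs in fibroblasts, 11 were from day 7 (13.1 CPM). The pDCs had 0 UMIs in sham and 6.33, 13.9 and 15.5 CPM at day 3, 7 and 14. AT2 cells had 3.12, 13.2 and 6.59 CPM at day 7, 14 and 28, and AT1 cells 4.65, 18.4 and 2.38 CPM. No level is given for the AT2 cells of sham (3 UMIs in 4 cells) and day 3 (2 UMIs in 3 cells), which were under 20 cells. Airway epithelial cells had 5.52 CPM in sham and 2.84 to 6.19 CPM in the 3 bleomycin libraries with 20 or more of them. B cells held 1 *Il34* UMI, AMs 2 and C1q IMs 4, so macrophages were at the level of the class expected to lack the gene. Within each of these classes the 95% counting intervals of the libraries overlapped. Overlap is not a test, and differences of *Il34* between time points were not tested.

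*Csf2* (chr11:54247271-54249667, minus strand) was found in few cells. A *Csf2* UMI was found in 157 of 40950 cells, and 39 cells with at least 3 of them held 559 of the 694 UMIs (80.5%). B cells, neutrophils, fibroblasts and endothelial cells held 0, which in the 1814 B cells allows up to 0.305 CPM and in the 3150 neutrophils up to 0.308 CPM. AMs held 3 UMIs in 8734 cells.

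Type 2 innate lymphoid cells (ILC2s), tissue lymphocytes that make type 2 cytokines, held more *Csf2* UMIs than any other gated class over all libraries, but not in each. The 44 gated ILC2s held 159 (22.9%), of which 158 were in 9 cells. They led the gated classes at day 3, with 122 of 319 UMIs (38.2%), and at day 7, with 24 of 193 (12.4%). In sham AT2 cells led, with 77 of 107 UMIs (72.0%). γδ T cells led at day 14, with 16 of 41 (39.0%), and at day 28, with 18 of 34 (52.9%). Cells of no class held 142 UMIs at day 3 (44.5%) and 123 at day 7 (63.7%), more than the ILC2s. The level was 162 CPM in sham (9 UMIs in 11 cells), 1723 at day 3 (122 UMIs in 8 cells), 519 at day 7 (24 UMIs in 7 cells), 85.2 at day 14 (4 UMIs in 12 cells) and 0 UMIs in the 6 cells of day 28. A single cell held up to 52 UMIs, so these levels rest on few cells, and no library had the 20 ILC2s needed for a test against CD4 T cells.

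The other *Csf2* cells were spread over several classes. Of the 39 cells with at least 3 UMIs, 14 passed no gate and held 241 UMIs, with 97 in a single cell of day 3. In sham, 2 of the 4 gated AT2 cells held 77 UMIs, 73 of them in 1 cell, whereas the 109 AT2 cells of day 7, 14 and 28 held none. γδ T cells, a source of *Il17a*, had 41.4 CPM in sham (3 UMIs in 14 cells, 95% Poisson interval 8.53 to 120.9) and 4.29, 5.56, 11.4 and 12.4 CPM in the bleomycin libraries by day, and 32 of 795 had a *Csf2* UMI. Of 750 NK cells, 20 had one, and of 957 CD4 T cells, 6. The 28 UMIs of C1q IMs lay in 4 of 5213 cells and the 21 UMIs of AT1 cells in 4 of 139.

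The 39 cells were compared with markers that did not choose them. At least 3 ILC2 markers were present in 16 of the 39, against 2.22% of all cells (909 of 40950). *Il1rl1*, the receptor for IL-33, was found in 15 (3.15% of all cells), *Areg*, an epidermal growth factor family ligand, in 27 (10.0%), and the type 2 cytokine *Il5* in 8 (0.0733%). At least 1 UMI of a T cell marker (*Cd3d*, *Cd3e*, *Cd3g*, *Trac*, *Trbc1* or *Trbc2*) was found in 28 of the 39, against 29.0% of all cells, and in 35 of the 44 gated ILC2s. *Trbc2*, a constant part of the T cell receptor β chain, was found in 22 of the 39 and *Trbc1* in 17, while *Cd3d* and *Cd3e*, chains of the receptor complex, were found in 4 each. Of the 44 gated ILC2s, 24 had *Trbc2*, 18 had *Trbc1* and 0 had *Cd3d* or *Cd3e*. The ILC2 gate left out cells in which a T cell marker reached the threshold for a positive marker, so UMIs under that threshold could remain. Of the 16 cells with at least 3 ILC2 markers, 1 had none of the T cell markers. From sham to day 28 the libraries held 6, 14, 15, 3 and 1 of these cells.

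**Figure D3:**
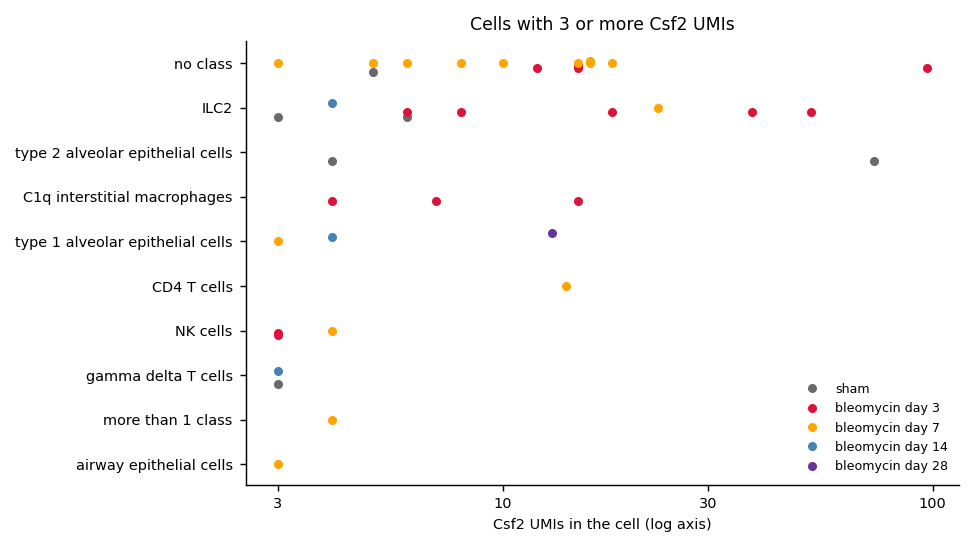
*Csf2* UMIs per cell (log axis) in the 39 cells with at least 3, by class, with 1 point per cell coloured by library. Most points belong to ILC2s and to cells of no class, and most come from the day 3 and day 7 libraries.

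*Csf1r* marked monocytes, C1q IMs and type 2 conventional dendritic cells (cDC2s). Nonclassical monocytes, which patrol vessel walls, were highest, with 1020, 896, 653, 996 and 613 CPM from sham to day 28. Classical monocytes had 411, 377, 513 and 546 CPM in the 4 libraries to day 14, below every nonclassical value. C1q IMs had 837 CPM in the 49 sham cells and 358, 369, 383 and 286 CPM after bleomycin, a range that overlapped that of classical monocytes. cDC2s followed with 183 CPM in sham and 153, 244 and 232 CPM at day 7, 14 and 28.

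Lower levels were present in neutrophils and AMs. Neutrophils carried 113, 116, 90.1, 124 and 147 CPM of *Csf1r*, and AMs 72.9, 94.9, 92.3, 139 and 89.7 CPM, so these ranges overlapped. After thinning, 54.2 to 87.2% of nonclassical monocytes, 46.0 to 80.0% of C1q IMs and 13.9 to 25.4% of AMs had a *Csf1r* UMI. T cells, which should lack it, were at 0.466 to 2.80%, with median depths of 3815.5 to 7921 UMIs against 13808 to 22778 in AMs. Unthinned, the shares were 94.9 to 97.4%, 87.5 to 96.8%, 62.2 to 88.7% and 2.24 to 7.44%.

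*Csf2ra* (chr19:61223957-61228429, minus strand) was the least selective receptor among myeloid cells. From sham to day 28 AMs carried 240, 264, 224, 271 and 191 CPM, C1q IMs 249, 320, 245, 377 and 298 CPM, and neutrophils 261, 263, 199, 235 and 201 CPM. Nonclassical monocytes stood at 338, 397, 224, 303 and 294 CPM, and classical monocytes at 249, 406, 237 and 232 CPM in 4 libraries. Ordered by level, each class down to mature dendritic cells (mature DCs, 105 to 181 CPM) overlapped its neighbour. B cells had 19.4 to 41.7 CPM and T cells 9.94 to 25.5 CPM.

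*Csf2rb* (chr15:78325752-78353847, plus strand) separated AMs from C1q IMs. Macrophages among the cells of no class were not part of this comparison. AMs carried 541, 603, 586, 650 and 423 CPM, whereas C1q IMs carried 214, 187, 185, 311 and 191 CPM, and the classes did not overlap. Mature DCs shared the AM range, at 641, 414, 366, 622 and 376 CPM, and neutrophils had 319, 374, 255, 382 and 342 CPM. Nonclassical monocytes were lower, at 154, 155, 112, 96.1 and 65.3 CPM. After thinning 52.8 to 66.5% of AMs had a *Csf2rb* UMI (94.8 to 98.2% unthinned), against 1.40 to 4.14% of T cells (5.20 to 11.0% unthinned).

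*Csf2rb2*, which lies beside it (chr15:78282507-78305721, minus strand), was highest in pDCs and mature DCs among the classes with at least 20 cells in a library. The pDCs carried 190, 158, 234 and 233 CPM in the 4 libraries to day 14, and mature DCs 186, 134, 94.2, 161 and 87.1 CPM. AMs had 125, 110, 92.6, 123 and 48.7 CPM, and C1q IMs 74.4, 80.3, 42.8, 81.2 and 57.3 CPM. T cells had 2.78 to 5.96 CPM. Because the transcripts of *Csf2rb* and *Csf2rb2* are near copies, they were compared in RefSeq: 387 stretches of 91 bases were shared, 7.47% of those in *Csf2rb* and 8.17% in *Csf2rb2*, and 0 lay in the last 500 bases, the end that a 3′ library reads. Basophils carried both, at 579 CPM of *Csf2rb* and 447 CPM of *Csf2rb2* over the 26 cells, with 6 *Csf1r* UMIs in all.

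*Csf3r* (chr4:126024550-126044440, plus strand) was mainly a neutrophil transcript in 4 of the 5 libraries. Neutrophils held 62.2% of its 31522 UMIs over all libraries and 77.5, 57.5, 11.6, 71.2 and 61.8% from sham to day 28. At day 7 C1q IMs held 26.4% and cells of no class 22.5%, against 356 of 3057 UMIs in neutrophils. The level in neutrophils was 2262, 1975, 428, 2069 and 2548 CPM from sham to day 28, so the day 7 library again stood below the rest. Classical monocytes had 126, 91.8, 96.8 and 145 CPM to day 14 and nonclassical monocytes 106, 92.1, 138, 86.0 and 65.3 CPM, all below the lowest neutrophil value, with the nonclassical day 7 value from the 25 cells rich in neutrophil markers. C1q IMs had 38.8, 77.3, 27.7, 26.3 and 18.5 CPM and AMs 16.2, 12.8, 12.8, 10.7 and 11.5 CPM. After thinning, 97.7%, 95.3%, 48.4%, 96.0% and 94.8% of neutrophils had a *Csf3r* UMI, against 0.248 to 2.44% of T cells (unthinned 82.8 to 99.1% and 0.298 to 5.38%).

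**Figure D4:**
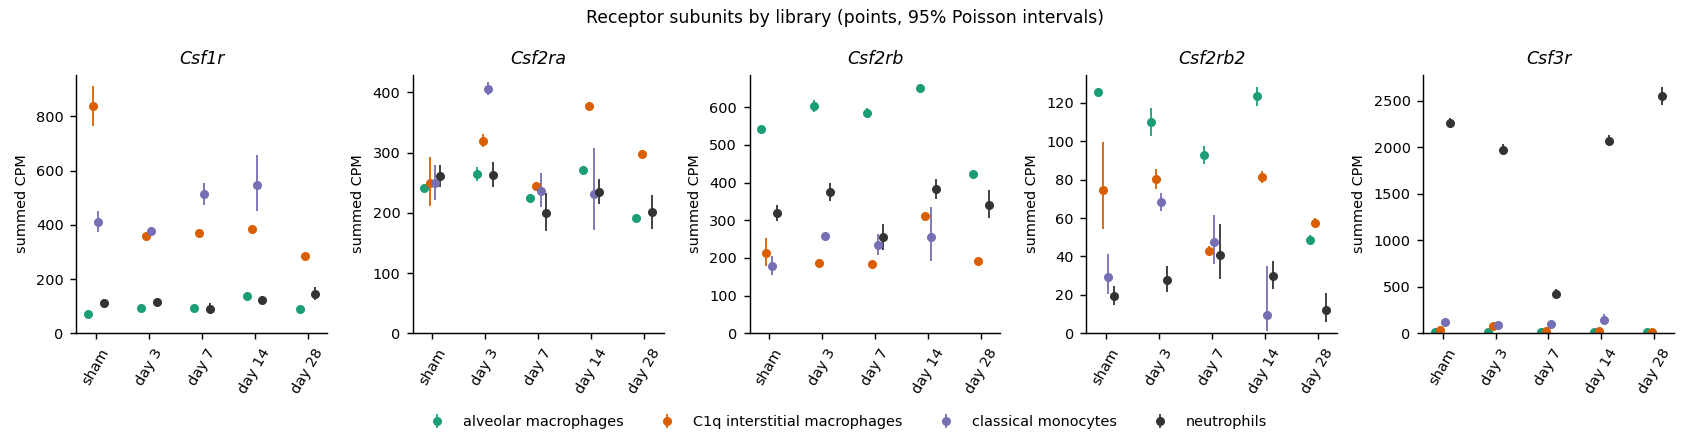
Levels of the 5 receptor genes in CPM by library, with 95% Poisson intervals, in AMs, C1q IMs, classical monocytes and neutrophils. AMs were highest for *Csf2rb* in every library, C1q IMs and classical monocytes for *Csf1r*, and neutrophils for *Csf3r*, with the lowest neutrophil value at day 7.

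The day 7 neutrophils differed from the others in more than these genes. Only 93 cells were gated at day 7, against 460 to 1096 in the other libraries, with a median of 7093 UMIs against 2157.5 to 3331. When cells under 4624 UMIs were left out of every library and the classes were kept, 46, 86, 93, 36 and 5 neutrophils remained. *Csf3r* in them was 1298, 1474, 428, 876 and 549 CPM from sham to day 28, and the day 28 interval (325 to 867) overlapped that of day 7 (384 to 474). *Csf1* in them was 103, 293, 40.8 and 103 CPM to day 14, and 0 UMIs in the 5 cells of day 28, which allows up to 91.4 CPM. When the cells left were gated again, 47, 90, 132, 40 and 6 neutrophils were found, with *Csf3r* at 1303, 1419, 381, 694 and 375 CPM, and *Csf1* at 108, 292, 57.6 and 71.1 CPM to day 14. The summed level of the 9 neutrophil markers in neutrophils was 117862 to 150264 CPM in the 5 libraries, and that of the 6 C1q IM markers was 24.3 CPM in sham and 478 at day 7, with 132, 422 and 403 CPM at day 3, 14 and 28. In B cells of day 7, *Csf3r* stood at 35.9 CPM and *Csf1* at 22.3 CPM, against 2.83 to 4.45 and 1.13 to 4.45 CPM in B cells of the other libraries.

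Promoters are shown for 3 of the 5 receptor genes because the pattern of *Csf2ra* over 72 class and library sums was most like that of *Spi1* (Pearson r = 0.94 on log2(CPM + 10)). *Spi1* encodes PU.1, a myeloid transcription factor known to bind purine-rich letters around GAGGAA. The sequences run from 250 bases before to 50 after the RefSeq start (GRCm38.p6), 5′ to 3′ on the gene's strand, and capitals mark GAGGAAG or its reverse complement CTTCCTC.
Csf3r, chr4:126024409-126024708 (+): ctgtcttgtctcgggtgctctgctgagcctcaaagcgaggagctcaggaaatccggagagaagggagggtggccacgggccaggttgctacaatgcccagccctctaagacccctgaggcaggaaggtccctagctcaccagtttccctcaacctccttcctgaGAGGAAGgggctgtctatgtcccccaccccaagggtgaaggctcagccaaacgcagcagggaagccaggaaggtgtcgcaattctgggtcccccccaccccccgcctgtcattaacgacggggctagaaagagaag
Csf2ra, chr19:61228369-61228668 (-): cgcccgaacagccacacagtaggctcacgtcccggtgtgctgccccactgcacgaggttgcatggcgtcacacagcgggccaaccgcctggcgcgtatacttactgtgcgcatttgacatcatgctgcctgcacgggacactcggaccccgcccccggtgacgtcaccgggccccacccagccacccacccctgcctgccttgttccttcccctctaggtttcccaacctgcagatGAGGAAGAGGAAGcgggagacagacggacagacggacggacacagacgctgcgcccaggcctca
Csf2rb2, chr15:78305672-78305971 (-): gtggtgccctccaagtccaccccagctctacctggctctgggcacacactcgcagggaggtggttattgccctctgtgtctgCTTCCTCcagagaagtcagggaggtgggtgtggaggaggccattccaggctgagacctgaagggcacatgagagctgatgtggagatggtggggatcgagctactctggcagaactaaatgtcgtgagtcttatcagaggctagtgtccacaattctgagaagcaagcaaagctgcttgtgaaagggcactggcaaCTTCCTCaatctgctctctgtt
The motif, chosen with these sequences in view and searched on both strands, occurred once in *Csf3r*, at base 165, in overlapping copies at bases 237 and 243 of *Csf2ra*, and at bases 83 and 279 of *Csf2rb2*. It occurred in 13.6% of all promoters of this length (4477 of 32851) and in neither the *Csf1* nor the *Csf2* window. The *Csf3r* window (chr4:126024409-126024708) runs past the gene start given above (126024550), and by that position its marked bases lie inside the gene. The *Csf2* window (chr11:54249850-54250149) lies wholly before the gene start given above (54249667), so the bases around that start were not searched. Those of *Csf1r*, *Csf2rb* and *Il34* were not searched here. A match is a description of letters and not of binding.

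Differences between classes were then tested with edgeR's quasi-likelihood test, pairing the summed counts of 2 classes within each library and adjusting p over all genes by Benjamini-Hochberg; log2 differences are given with their SE. The p-values measure how far the difference between 2 classes varied over these libraries. Each library was also a different time point, so that variation cannot be told apart from change over time. *Csf2* and *Il34* were under the low-count filter in every comparison, so at most 6 of the 8 genes were tested.

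AMs and C1q IMs differed in 5 of the 6 tested genes, where 40.6% of all genes were called. *Csf2rb* was higher in AMs (mean 560 against 218 CPM, log2 difference 1.22 ± 0.16, adjusted p = 0.000788) in 5 of 5 libraries. *Csf1* (2.87 against 24.1 CPM, -3.49 ± 0.36, adjusted p = 0.000281), *Csf1r* (97.7 against 447 CPM, -2.26 ± 0.27, adjusted p = 0.000578) and *Csf3r* (12.8 against 37.7 CPM, -1.55 ± 0.23, adjusted p = 0.00161) were lower in AMs in 5 of 5. *Csf2ra* was also lower (238 against 298 CPM, -0.48 ± 0.14, adjusted p = 0.0292), but the call was lost without the day 7, day 14 or day 28 library and with library totals in place of TMM scaling (adjusted p = 0.0635). *Csf2rb2* did not pass (0.37 ± 0.20, adjusted p = 0.187), and passed with library totals (adjusted p = 0.0469). Neutrophil markers summed to 196 to 547 CPM in AMs and 129 to 859 CPM in C1q IMs, with 859 in sham, and their part in the *Csf3r* difference was not tested.

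AMs that also carried markers of fibrotic macrophages (at least 3 of *Gpnmb*, *Mmp12*, *Mfge8*, *Spp1*, *Trem2* and *Fabp5*; 60 to 179 cells per library) were compared with AMs carrying at most 1. Of 6 tested genes, 2 were called, with 16.1% of all genes called. *Csf1* was higher in the *Gpnmb*/*Mmp12* AMs (5.07 against 2.53 CPM, 1.04 ± 0.29, adjusted p = 0.0281; 5 of 5 libraries), and *Csf3r* was lower (7.33 against 15.5 CPM, -0.95 ± 0.20, adjusted p = 0.00599; 5 of 5). The *Csf1* call was lost with DESeq2, without the library block (adjusted p = 0.565), without the sham, day 3 or day 28 library, and with a stricter gate. Both *Csf1* means lay within the range of B cells, which should lack the gene (1.13 to 22.3 CPM by library). The other receptors had log2 differences of -0.07 (*Csf1r*), 0.15 (*Csf2ra*), 0.08 (*Csf2rb*) and 0.11 (*Csf2rb2*), and none passed. *Gpnmb*/*Mmp12* AMs were also deeper, with median depths of 19169 to 25049 UMIs against 11991 to 19746.

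AMs with at least 3 reporter UMIs were set against AMs with 0. Only 0.712% of all genes were called, and 2 of the 6 tested genes were among them. *Csf1* was higher in reporter-positive AMs (4.33 against 1.74 CPM, 1.56 ± 0.30, adjusted p = 0.0199; 5 of 5 libraries) and so was *Csf2rb* (582 against 517 CPM, 0.20 ± 0.04, adjusted p = 0.0497; 5 of 5). The *Csf1* call was lost with DESeq2 (adjusted p = 0.186), without the library block (1.00), without the sham library (0.321) and without day 7 (0.0655), and the *Csf2rb* call was lost in 12 of 14 alternatives. *Csf1r* (0.23 ± 0.06, adjusted p = 0.0932) and *Csf2rb2* (0.21 ± 0.06, adjusted p = 0.126) did not pass. Both *Csf1* means lay within the range of B cells, which should lack the gene (1.13 to 22.3 CPM by library). T cells, outside the reporter lineage, also held at least 3 reporter UMIs in 3.28 to 17.9% of cells, against 13.2 to 64.0% of AMs. In sham AMs the share was 27.9%, above day 3 (22.3%) and day 7 (13.2%). By flow cytometry, a measure of protein, the paper found only a small part of lung macrophages labelled without injury. Reporter-positive here names the UMI count and not the origin of a cell. Reporter-positive AMs had median depths of 17321 to 25216 UMIs against 11632 to 15171, and neutrophil markers in them summed to 215 to 1447 CPM against 184 to 352; the part of these in the differences was not tested.

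**Figure D5:**
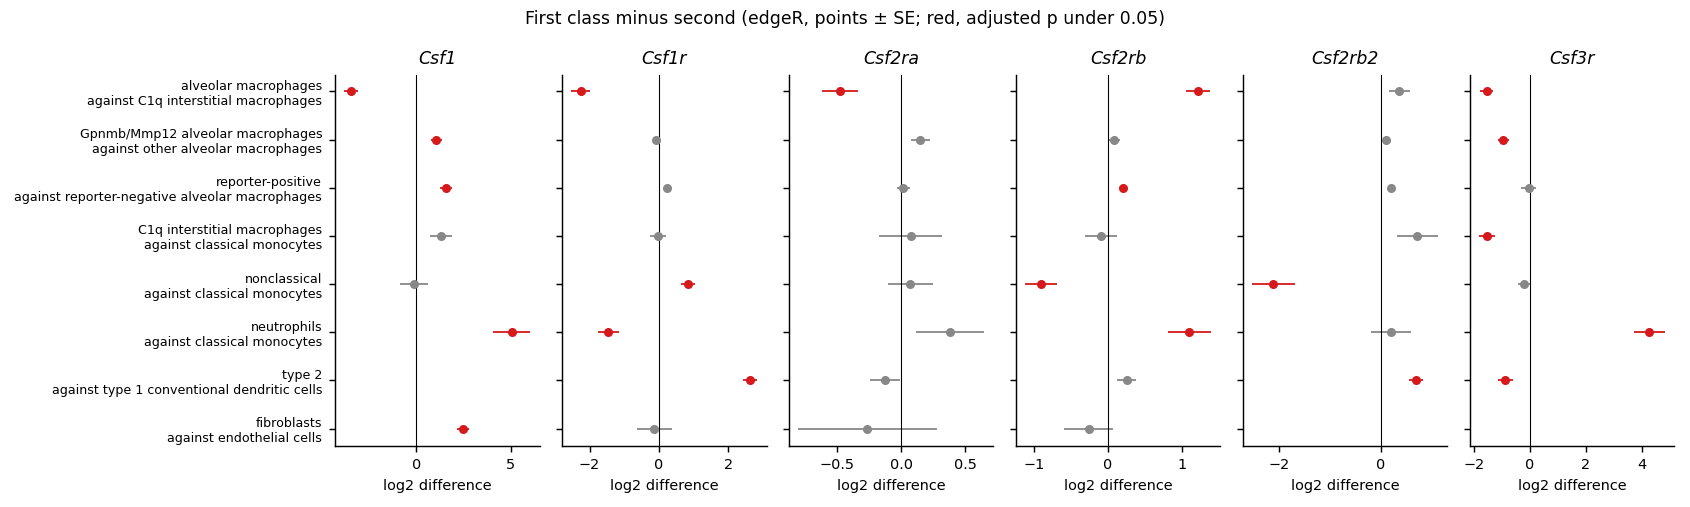
Log2 differences between classes with SE bars for the 6 genes that reached the low-count filter in any of 8 comparisons, red where the adjusted p was under 0.05. The longest bars from 0 are *Csf1* and *Csf3r* in neutrophils against classical monocytes and *Csf1* in AMs against C1q IMs.

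C1q IMs differed from classical monocytes, a source of tissue macrophages, in 1 of 6 tested genes (8.41% of all genes called, 4 libraries). *Csf3r* was lower in C1q IMs (42.5 against 115 CPM, -1.53 ± 0.29, adjusted p = 0.0212) in 4 of 4 libraries, and the call was lost without the sham, day 7 or day 14 library. *Csf1r* differed by -0.02 ± 0.24, *Csf2ra* by 0.07 ± 0.24 and *Csf2rb* by -0.09 ± 0.22, none past the threshold. *Csf1* was higher in C1q IMs in 4 of 4 libraries without passing (26.1 against 9.39 CPM, 1.32 ± 0.60, adjusted p = 0.208).

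Nonclassical and classical monocytes differed in 3 of 6 tested genes (14.5% of all genes called, 4 libraries). *Csf1r* was higher in nonclassical monocytes (891 against 462 CPM, 0.85 ± 0.20, adjusted p = 0.0174), and *Csf2rb* (129 against 232 CPM, -0.90 ± 0.21, adjusted p = 0.0175) and *Csf2rb2* (12.4 against 38.7 CPM, -2.11 ± 0.42, adjusted p = 0.00652) were lower. The first was seen in 4 of 4 libraries, the second in 4 of 4 and the third in 3 of 4. Each call was lost in at least 1 fit that left out a library: *Csf1r* without sham or day 14, *Csf2rb* without day 7 or day 14, and *Csf2rb2* without day 3. The *Csf2rb* call was also lost without the library block (adjusted p = 0.0617).

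Neutrophils and classical monocytes differed in 4 of 6 tested genes (33.7% of all genes called, 4 libraries). *Csf1* (252 against 9.39 CPM, 5.07 ± 0.98, adjusted p = 0.00683), *Csf3r* (1683 against 115 CPM, 4.28 ± 0.56, adjusted p = 0.00178) and *Csf2rb* (332 against 232 CPM, 1.10 ± 0.29, adjusted p = 0.0223) were higher in neutrophils in 4 of 4 libraries. *Csf1r* was lower (111 against 462 CPM, -1.46 ± 0.30, adjusted p = 0.00927), a call lost without sham (adjusted p = 0.0504), and the *Csf2rb* call was lost without the sham, day 3 or day 14 library. With library totals in place of TMM the median of all genes moved by -0.58, the *Csf2rb* difference fell to 0.51 (adjusted p = 0.107), and the uncalled *Csf2ra* and *Csf2rb2* differences changed sign.

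Among dendritic cells, cDC2s and type 1 conventional dendritic cells (cDC1s) differed in 3 of 5 tested genes (23.3% of all genes called, 4 libraries). *Csf1r* was higher in cDC2s (203 against 31.4 CPM, 2.63 ± 0.20, adjusted p = 4.55e-06), as was *Csf2rb2* (57.9 against 33.6 CPM, 0.70 ± 0.13, adjusted p = 0.00275), both in 4 of 4 libraries; the *Csf2rb2* call was lost without the library block (adjusted p = 0.212) and with doublets kept (0.0789). *Csf3r* was lower (4.74 against 8.41 CPM, -0.88 ± 0.27, adjusted p = 0.0322; 3 of 4), a call lost in 6 of 13 alternatives. Both *Csf3r* means lay within the range of CD8 T cells, which should lack the gene (0.812 to 13.1 CPM by library). *Csf2ra* (-0.13) and *Csf2rb* (0.25) did not pass. Fibroblasts against endothelial cells gave 1 of 4 tested genes (26.4% of all genes called): *Csf1* was higher in fibroblasts (153 against 39.0 CPM, 2.49 ± 0.31, adjusted p = 9.85e-05) in 5 of 5 libraries.

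Each bleomycin library was set beside the one sham library within classes of at least 50 cells, as a description with no test. Of 98 levels at 50 CPM or more, 11 (11.2%) were past 2-fold, 6 higher and 5 lower than sham. All of these share the sham library. Over all genes at this level, the share past 2-fold ran from 3.21 to 38.3% by class and library. AMs were counted as a whole and again as *Gpnmb*/*Mmp12* AMs and other AMs, so the same cells enter the 98 levels more than once.

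The 2-fold differences in neutrophils were those of day 7, where 38.3% of all genes at this level were past 2-fold: *Csf1* was lower (275 to 40.8 CPM, log2 -2.75, 95% counting interval -3.29 to -2.26) and so was *Csf3r* (2262 to 428 CPM, -2.40, -2.56 to -2.25). In AMs *Csf2rb2* was lower at day 28 (125 to 48.7 CPM, -1.36, -1.44 to -1.28; background 6.52%). Within these same AMs, *Csf2rb2* was lower both in *Gpnmb*/*Mmp12* AMs (126 to 53.2 CPM, -1.24, background 8.44%) and in the other AMs (120 to 47.1 CPM, -1.35, background 6.4%). *Csf2rb* in AMs at day 28 had a log2 difference of -0.36. *Csf1r* was higher in *Gpnmb*/*Mmp12* AMs at day 14 (52.0 to 122 CPM, 1.24, 0.92 to 1.56; background 7.03%). In AMs as a whole it was 72.9 CPM in sham and 139 at day 14, and in the other AMs 77.6 to 151 CPM by library. Neither was past 2-fold of sham.

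In classical monocytes *Csf2rb2* was higher at day 3 (29.4 to 68.3 CPM, 1.21, 0.71 to 1.76; background 22.0%). *Csf2rb* was higher at day 14 in B cells (33.9 to 79.0 CPM, 1.22, 0.67 to 1.77; background 11.1%) and in cDC1s (123 to 276 CPM, 1.17; background 12.0%). In cDC2s *Csf2rb2* was higher at day 7 (32.0 to 67.7 CPM, 1.08; background 9.35%) and at day 14 (to 81.2 CPM, 1.35; background 10.7%). With predicted doublets kept, the cDC2 differences were 0.27 and 0.59, and with cells under 4624 UMIs left out the B cell difference was 0.75.

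The wider pathway was described from a list of 34 genes. It held the cytokines *Csf3*, *Il3*, *Il5*, *Flt3l*, *Kitl* and *Tslp*, and the receptors *Il3ra*, *Il5ra*, *Flt3*, *Kit* and *Crlf2*. Signalling genes and their inhibitors included *Jak2*, *Tyk2*, *Stat3*, *Stat5a*, *Stat5b*, *Lyn*, *Cbl*, *Inpp5d*, *Ptpn6*, *Cish*, *Socs1*, *Socs2* and *Socs3*. Myeloid regulators and an adaptor were *Spi1*, *Pparg*, *Bhlhe40*, *Cebpa*, *Cebpb*, *Irf8*, *Egr2*, *Klf4* and *Tyrobp*. Each share of the list called is given beside the share of all genes, with no test between them. In AMs against C1q IMs, 6 of 30 tested genes were higher and 12 lower (60.0% against 40.6% of all genes; median log2 difference of the list -0.15). *Pparg*, a regulator of the AM program that GM-CSF is known to induce, was higher (2.47 ± 0.15, adjusted p = 4.03e-05) and so was *Stat5a*, which carries the GM-CSF signal (0.77 ± 0.22, adjusted p = 0.0267). *Kitl*, the ligand of KIT, was lower (-3.90 ± 0.50, adjusted p = 0.000578), as was *Tslp*, with 2 UMIs in AMs and 69 in C1q IMs. In *Gpnmb*/*Mmp12* AMs 3 of 26 were higher than in the other AMs and 3 lower (23.1% against 16.1%; median -0.09), with *Tyrobp*, an adaptor of TREM2, at 0.69 ± 0.09 and *Egr2* at -0.48 ± 0.08. In reporter-positive AMs 1 of 27 passed, the feedback inhibitor *Socs3* (0.47 ± 0.09, adjusted p = 0.0224), which is 3.70% against 0.712%, with a median of 0.01.

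Against classical monocytes, C1q IMs had 0 of 31 higher and 5 lower (16.1% against 8.41%; median -0.32), among them *Flt3* (-3.60 ± 0.55) and the kinase *Lyn* (-1.24 ± 0.21, adjusted p = 0.0126). Nonclassical monocytes had 5 of 27 higher, including *Pparg* (2.24 ± 0.27), and 6 lower, including *Socs2* (-3.35 ± 0.51), or 40.7% against 14.5% (median 0.33). Neutrophils had 5 of 27 higher, including *Spi1* (1.39 ± 0.38) and *Stat5b* (1.37 ± 0.39), and 5 lower, including *Klf4* (-2.83 ± 0.45) and *Irf8* (-2.50 ± 0.50), or 37.0% against 33.7% (median 0.46). In cDC2s against cDC1s, 12 of 28 were higher, including *Socs2* (1.98 ± 0.22) and *Socs3* (1.31 ± 0.14), and 6 lower, including *Irf8*, which cDC1s need (-4.47 ± 0.30, adjusted p = 1.75e-06), or 64.3% against 23.3% (median 0.18). In fibroblasts against endothelial cells 2 of 24 were higher, *Cebpb* (1.81 ± 0.30) and *Socs1* (1.53 ± 0.42), and 6 lower, including *Kitl* (-3.88 ± 0.47, adjusted p = 9.62e-05), or 33.3% against 26.4% (median -0.03).

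The genes most like each receptor over the 72 sums of at least 50 cells were found by Pearson r on log2(CPM + 10), as a description, since sums of one library share its depth. *Csf1r* was most like *Clec4a3* (0.93), *Cd300a* (0.90) and *Fcgr3* (0.88), *Csf2rb* most like *Pirb* (0.92), *Ncf1* (0.91) and *Spi1* (0.90), and *Csf3r* most like *Trpm2* (0.95). *Csf2rb2* was most like *Scamp2* (0.85), and *Csf1* most like *Steap4* (0.86). Between the 8 genes, r was 0.89 for *Csf2ra* and *Csf2rb*, 0.87 for *Csf2rb* and *Csf2rb2*, 0.83 for *Csf1r* and *Csf2ra*, and 0.79 for *Csf1* and *Csf3r*.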

How the data were processed

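The study's methods state that 10x 3′ v3.1 libraries were aligned and counted by the authors with Cell Ranger 6.0.0 against mm10. The deposited feature lists also hold a feature RFP, taken here as the tdT reporter. The deposited files hold raw counts: whole UMIs per feature and barcode, not normalised. As in the study, a barcode was kept if it had between 300 and 8000 genes and between 800 and 60000 UMIs. Less than 15% of its UMIs had to be mitochondrial. Doublets were predicted within each library, and 3822 were removed in all (scrublet in scanpy 1.11.5, expected rate 0.8% per 1000 barcodes). A marker counted as positive at 0.5 of its 99.5% quantile or more, and a class needed 3 positive markers (2 where 4 are listed, 4 for AMs) and a margin of 0.2 over other classes. Counts were summed by class and library (at least 20 cells) and tested in edgeR 4.0.16 (R 4.3.3; TMM, quasi-likelihood test, library as a block, adjusted p threshold 0.05), after a check on simulated data; DESeq2 1.42.0 was an alternative. The block pairs classes of the same library, which come from the same animals. Intervals are 95%, and a count of 0 was read against a floor of 3 counts. Samples were grouped by the labels' treatment.

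The text names all 8 genes, from the pathway list at most the 2 largest called genes in each direction per comparison, and at most 3 genes most like each member over class and library sums. The members and lists were chosen with earlier results of these data known, and nothing was selected blind to them. Sequences and gene positions are from RefSeq (GRCm38.p6) and the annotation of GRCm38. *Csf1r* is given without coordinates or sequence. A member of the pathway list is not reported here by name.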

Additional observations from a re-analysis of the deposited data

Results flagged for a closer look

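*Csf2* was present in cells that passed no marker gate and so entered no comparison. At day 3 the level in these cells was 10.4 CPM (95% Poisson interval 8.80 to 12.3), against 2.39 CPM in the sham library (1.34 to 3.94). A single cell held 97 of the 142 UMIs at day 3, and without it the level was 3.31 CPM (45 UMIs), inside the sham interval. UMIs of 1 cell are not independent, so the Poisson interval is too narrow here. The sham library held 15 UMIs, and the day 7, day 14 and day 28 libraries 123, 7 and 2. With 1 library per time point the difference was not tested.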

How the results depend on the processing

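No called member difference reversed in 583 alternative fits of 45 tested values: 525 stayed on the same side of the threshold, 53 lost the call and 5 gained it, and 28 of the 45 values kept their side of the threshold in all. Among uncalled differences, 12 values had the other sign in at least 1 fit (32 fits). The counts of genes called moved more. Without the library block, which gives up the pairing of classes within a library, they were 83 in place of 1724 for *Gpnmb*/*Mmp12* AMs, 1 in place of 80 for reporter-positive AMs, 348 in place of 977 for C1q IMs against classical monocytes, 464 in place of 1227 for nonclassical monocytes, 962 in place of 2215 for cDC2s and 1173 in place of 1924 for fibroblasts. The reporter count was also 47 with DESeq2, 173 with no low-count filter, 165 with doublets kept and 39 with a stricter gate. With library totals in place of TMM, an alternative chosen after seeing the data, the *Gpnmb*/*Mmp12* count was 2727; a stricter gate gave 2036 for neutrophils (3097).

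Leaving out each library in turn gave 3692 to 5546 genes for AMs against C1q IMs (5339), 1014 to 1601 for *Gpnmb*/*Mmp12* AMs, 34 to 80 for reporter-positive AMs, 122 to 700 for C1q IMs against classical monocytes, 681 to 883 for nonclassical monocytes, 1065 to 4357 for neutrophils, 1524 to 2149 for cDC2s and 1404 to 1852 for fibroblasts. The lowest neutrophil count was without sham, and the lowest C1q IM and monocyte count without day 7. Library totals moved the median of all genes by -0.58 for neutrophils, -0.28 for fibroblasts, 0.17 for AMs against C1q IMs, -0.15 for *Gpnmb*/*Mmp12* AMs and 0.11 for nonclassical monocytes; signs changed for the uncalled *Csf2rb* and *Csf2rb2* in *Gpnmb*/*Mmp12* AMs and *Csf2ra* in reporter-positive AMs. Without thinning, 201 in place of 122 class and library shares were at 10% or more. With doublets kept, 18 in place of 11 levels were past 2-fold of sham. Leaving out cells under 4624 UMIs with classes unchanged, chosen after seeing the data, gave 8. Apart from those stated, the causes were not tested.

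The time course rests on 1 library each, and no interval here covers differences between animals. Few ILC2s, basophils and sham C1q IMs were captured, and *Csf2* and *Il34* were too low for any test. Comparisons with classical monocytes could not be repeated with Leiden clusters, and the ILC2 comparison was not run because no library held 20 ILC2s.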
